A study of Mus musculus with 2 samples.

Results

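AP-1 is a family of transcription factors that bind DNA as dimers, and 10 of its genes were followed here in 4T1 cells, a mouse mammary carcinoma line that metastasizes to the lung. The genes were taken by name: Fos, Fosb, Fosl1 and Fosl2 of the FOS family, Jun, Junb and Jund of the JUN family, Atf2 and Atf3 of the ATF family, and Batf3. All 10 were found among the 21911 genes listed. One culture was treated with PBS and another with potassium oxalate, both for 48 h, and each gave 1 library of polyadenylated RNA. The oxalate dose is given as 20 µM in the paper and in the sample's own label, whereas the shared treatment text of the labels gives 20 mM. Both libraries came from the same unmodified cell line, with no other agent or allele named.

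The FOS and JUN proteins carry a basic region that contacts DNA and a leucine zipper that pairs them. FOS proteins need a JUN partner, while JUN proteins can also pair with each other or with ATF proteins. Growth factors and stress induce the immediate-early members such as Fos through the MAPK kinases, which phosphorylate the factors at the Fos promoter (ERK), c-Jun (JNK) and ATF2 (p38 and JNK). In carcinoma cells, AP-1 is known for driving genes of proliferation, invasion and matrix breakdown. The question here was which FOS and JUN transcripts prevail in 4T1 cells beside c-fos, whose protein was blotted in the study, and how far each differed between the libraries.

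Each value is an FPKM (fragments scaled to the length of the transcript and to the mapped fragments of the library), so that genes can be ranked within a library. The difference is log2((oxalate + 1)/(PBS + 1)), on which changes of low genes come out too small. It was taken for the 10267 genes with a mean of at least 1 FPKM over the 2 libraries, of which 8 of the 10 AP-1 genes were part. Fos and Batf3 were below this limit. With 1 library per condition there was no replicate error, so no difference could be tested between the conditions. Steps in the low FPKM values gave depths of about 56764400 reads for PBS and 36529900 for oxalate, from which reads per gene and a Clopper-Pearson (exact) 95% interval for the log2 ratio, without pseudocount, were estimated. These intervals cover counting error only. The 7 epithelial markers Epcam, Cdh1, Krt7, Krt8, Krt18, Krt19 and Cldn4 lay between 125.71 and 703.31 FPKM with PBS and between 125.33 and 699.04 with oxalate. Of 11 markers of other cells, 9 were under 1 FPKM in both libraries, with Ptprc, Itgam and Cd3e listed at 0. The exceptions were Col1a1, a collagen gene, at 143.48 and 144.61 FPKM, and Cd68, a lysosomal protein of macrophages, at 7.79 and 7.11 FPKM. In RNA of whole cultures, fewer expressing cells and less RNA per cell cannot be told apart.

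The DNA that AP-1 reads is short. AP-1 dimers bind the heptamer TGACTCA and, with ATF or CREB proteins, the octamer TGACGTCA. Promoters of RefSeq (GRCm38.p6, 250 bases before to 50 after the start) were matched for 9 of the 10 genes, all except Fosl1. On both strands they were searched for TGACTCA, TGACGTCA, the variant octamer TGACATCA, the shorter core TGACG (which is also part of TGACGTCA), TATAAA and the CArG box bound by serum response factor. None of the 9 windows held TGACTCA, TGACGTCA or a CArG box, which stood in 5.20%, 1.79% and 1.63% of all 32851 promoters. This says only that these letters are not in these windows. The octamer TGACATCA stood only in the Jun window among the 9, 45 to 38 bases before the start, and in 3.62% of all promoters. The core TGACG stood in the windows of 4 members, Fos, Fosb, Junb and Atf3, and in 20.8% of all promoters. Of 8158 genes with a matched promoter and a mean of at least 1 FPKM, 3055 held it. For Atf3, RefSeq puts the start 34706 bases after the GENCODE start, so that its window lies within the GENCODE gene. TATAAA stood in the windows of Fos and Junb, in 13.6% of all promoters and in 632 of the 8158 genes. In Fos it lay 33 to 28 bases before the start, and in Junb 30 to 25 bases before the start that GENCODE gives. The stretches before the RefSeq starts of Fos, Fosb, Jun and Junb are shown because they hold these letters in members that range from under 1 to over 100 FPKM. Capitals mark TGACG, TGACATCA or TATAAA, each stretch is read 5′ to 3′ on the strand of its gene, and bases that GENCODE puts in an exon are left out. They lie at chr12:85473770-85473889 (Fos, plus strand), chr7:19310052-19310165 (Fosb, minus strand), chr4:95052223-95052342 (Jun, minus strand) and chr8:84978749-84978868 (Junb, minus strand).
Fos: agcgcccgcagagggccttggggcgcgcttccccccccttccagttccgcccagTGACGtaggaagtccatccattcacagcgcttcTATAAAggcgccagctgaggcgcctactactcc
Fosb: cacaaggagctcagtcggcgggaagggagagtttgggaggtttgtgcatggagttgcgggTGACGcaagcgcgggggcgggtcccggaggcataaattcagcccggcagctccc
Jun: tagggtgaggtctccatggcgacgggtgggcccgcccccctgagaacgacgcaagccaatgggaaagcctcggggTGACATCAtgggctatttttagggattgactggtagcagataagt
Junb: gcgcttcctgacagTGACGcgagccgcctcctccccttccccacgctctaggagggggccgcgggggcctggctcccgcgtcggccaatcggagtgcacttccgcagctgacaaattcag

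Among the FOS genes, Fosl1 prevailed in both libraries. Fosl1, which encodes FRA-1, reached 183.48 FPKM in the PBS library and 169.78 FPKM in the oxalate library. It held 85.2% of the summed FPKM of the 4 FOS genes with PBS and 84.5% with oxalate. Fosl2, which encodes FRA-2, was at 27.34 and 27.79 FPKM and held 12.7% and 13.8% of the sum. The order of these genes was the same in both libraries. Fosb, an immediate-early gene like Fos, reached 3.77 FPKM in the PBS library and 2.41 FPKM in the oxalate library, and its share of 1.75% with PBS was smaller with oxalate. Fos itself was the lowest of the 4, at 0.82 and 0.95 FPKM, and held 0.381% and 0.473%. The Fosl1 level was 224 times that of Fos with PBS and 179 times with oxalate, and the Fosl2 level 33.3 and 29.3 times. The transcript of c-fos was thus a minor part of the FOS transcripts in these cells, with or without oxalate. By Western blot, the paper reports that oxalate induced c-fos protein in these cells and that a MAPK inhibitor abolished this. The levels given here are of RNA at 48 h, and how they relate to the protein was not tested. The Fosl1 level depends on the length that it is divided by, since its 2 coding transcripts are 357 and 1864 bases long. Per length of the longest coding transcript, which was tried after the values were seen, the Fosl1 share was 77.7% with PBS and 76.7% with oxalate. As estimated reads not divided by length, it was 51.4% and 49.6%, since the long Fosl2 transcript of 6537 bases gives more reads per molecule.

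Among the JUN genes, Jund was highest, then Junb, then Jun. Jund, which encodes JunD, reached 406.79 FPKM in the PBS library and 360.41 FPKM in the oxalate library, and held 67.8% and 66.2% of the summed FPKM of the 3 JUN genes. Junb, which encodes JunB, was at 170.27 and 159.8 FPKM and held 28.4% and 29.3%. Jun, which encodes c-Jun, the target of JNK, was at 23.17 and 24.62 FPKM and held 3.86% and 4.52%. The Jund level was 17.6 times that of Jun with PBS and 14.6 times with oxalate. Each of the 3 genes has 1 annotated coding transcript of 1 exon, of 1668 bases for Jund, 1809 for Junb and 3189 for Jun, so that fewer choices of length are open than for Fosl1. For Jund, RefSeq puts the start 1210 bases before the GENCODE start, so that the length behind its FPKM is uncertain. The summed JUN level was 2.79 times the summed FOS level with PBS and 2.71 times with oxalate.

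The remaining members were intermediate or low. Atf2, a partner of c-Jun that p38 and JNK phosphorylate, reached 20.94 FPKM in the PBS and 22.24 FPKM in the oxalate library, close to Jun and Fosl2. Atf3, a stress-induced factor of the ATF family, was at 3.3 and 2.88 FPKM. Batf3, a small zipper protein known from dendritic cells, was at 0.51 and 0.75 FPKM. Jund ranked 174th of all genes listed with PBS and 196th with oxalate, while Fos ranked 10415th and 10289th. Over the 10267 genes, the median level was 16.51 FPKM with PBS and 16.54 with oxalate, so that Jund, Fosl1, Junb, Fosl2, Jun and Atf2 were above it in both libraries and the other 4 members were below it. In descending order of the mean, the levels run Jund, Fosl1, Junb, Fosl2, Jun and Atf2. Atf3 and Fosb had the same mean and changed places between the libraries, and Fos and Batf3 came last.

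**Figure D1:**
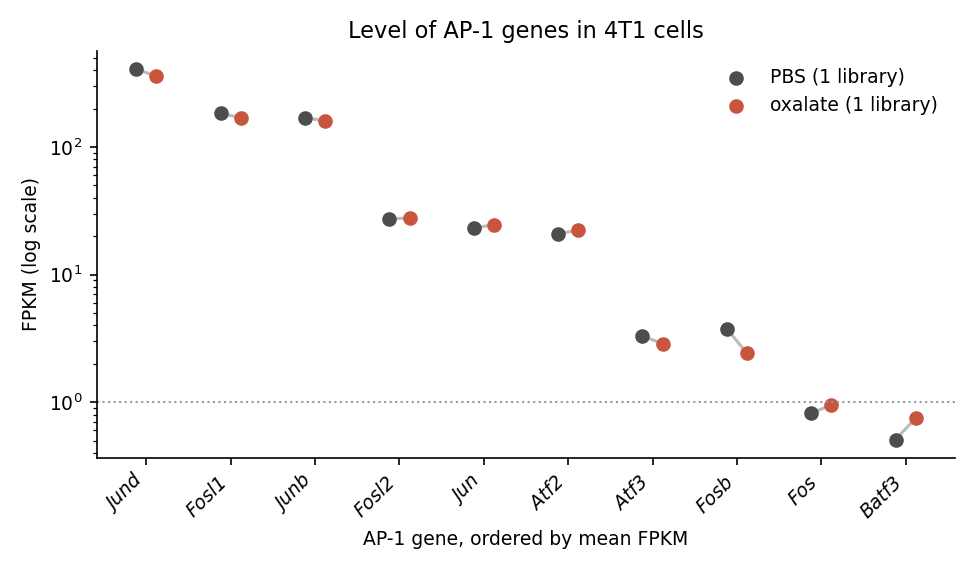
FPKM of the 10 AP-1 genes on a log axis, ordered by the mean, with 1 point per library (grey for PBS, red for oxalate) and a dotted line at 1 FPKM. Jund, Fosl1 and Junb lie between 159.8 and 406.79 FPKM, whereas Fos and Batf3 are below 1 FPKM in both.

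**Figure D2:**
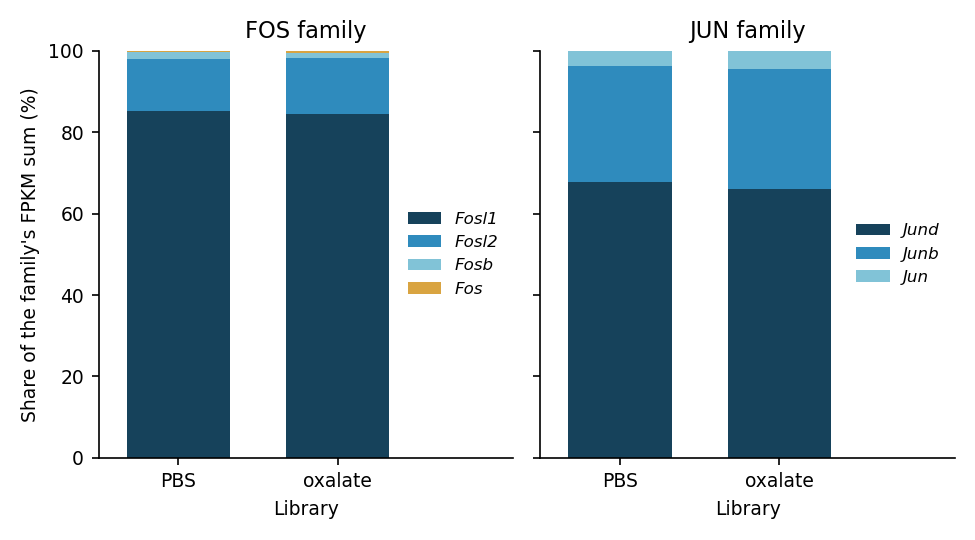
Share of the summed FPKM of the FOS family (left) and the JUN family (right) held by each gene, in percent, 1 bar per library. Fosl1 fills 85.2% and 84.5% of the FOS bars, and Jund 67.8% and 66.2% of the JUN bars, with Fos at 0.381% and 0.473%.

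No AP-1 gene differed 2-fold between the libraries. Of the 8 members with a mean of at least 1 FPKM, 0 were raised and 0 lowered at least 2-fold, against 0.292% of all 10267 genes raised and 0.36% lowered. At 1.5-fold there were also 0 in either direction, against 0.935% raised and 1.05% lowered. At 1.2-fold 1 member was lowered and 0 were raised, against 5.19% of all genes lowered and 4.75% raised. Of the 8, 3 were higher and 5 lower with oxalate, with a median log2 difference of -0.10, beside 0.0031 over all genes, of which 50.6% were higher and 49.0% lower. The median of the 8 members rests on which of them are counted. With all 10 members, or with the 6 at a mean of at least 5 FPKM, it was -0.034.

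The gene lowered past 1.2-fold was Fosb. Its level of 3.77 FPKM with PBS and 2.41 with oxalate gives a log2 difference of -0.48, or -0.65 without pseudocount, which is 1.56-fold, so that its side of the 1.5-fold limit depends on the pseudocount. From an estimated 687 and 283 reads, the log2 ratio had an interval of -0.85 to -0.44. Of 3624 genes with a mean between 1 and 10 FPKM, 2.24% were lowered as far or further. Fosb has 6 coding transcripts of 1090 to 3782 bases, so that its reads could be shared out in several ways.

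The 3 most abundant members were all lower with oxalate, by small amounts. Jund differed by -11.4% (log2 difference -0.17, interval -0.20 to -0.15). Of 967 genes with a mean of at least 100 FPKM, 7.96% were lowered as far or further as Jund, and the median of these genes was -0.013. Fosl1 differed by -7.47% (log2 difference -0.11, interval -0.16 to -0.069), and 16.5% of the same genes were lowered as far or further. Junb differed by -6.15% (log2 difference -0.091, interval -0.13 to -0.057), with 21.6% of these genes as far or further. The intervals leave out 0, which says that the reads of these 2 libraries differed beyond counting error, and not that the conditions did. The summed FPKM was 600.23 with PBS and 544.83 with oxalate for the JUN genes, a log2 difference of -0.14. For the FOS genes it was 215.41 and 200.93, a log2 difference of -0.10.

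Jun and Atf2 were slightly higher with oxalate. Jun had a log2 difference of 0.084 (interval 0.019 to 0.16) and Atf2 one of 0.083 (interval 0.011 to 0.16). Of 5676 genes with a mean between 10 and 100 FPKM, 24.3% were raised as far as Atf2 or further. Fosl2 had a log2 difference of 0.023, with an interval from -0.021 to 0.068.

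For Fos, Atf3, Fosl2 and Batf3 the interval held 0, and at this depth no difference was detectable in them. The log2 difference of Fos was 0.10, or 0.21 without pseudocount, from an estimated 98 and 73 reads, with an interval from -0.25 to 0.66. The upper bound lies below a 2-fold rise, which is 1 on this scale. This bound covers counting error in the Fos RNA of these 2 libraries, and not the c-fos protein. Atf3 had a log2 difference of -0.15, with 364 and 205 reads and an interval from -0.45 to 0.058. Batf3 had one of 0.21, with only 23 and 22 reads and an interval from -0.34 to 1.48, so that even a 2-fold difference was not resolved.

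**Figure D3:**
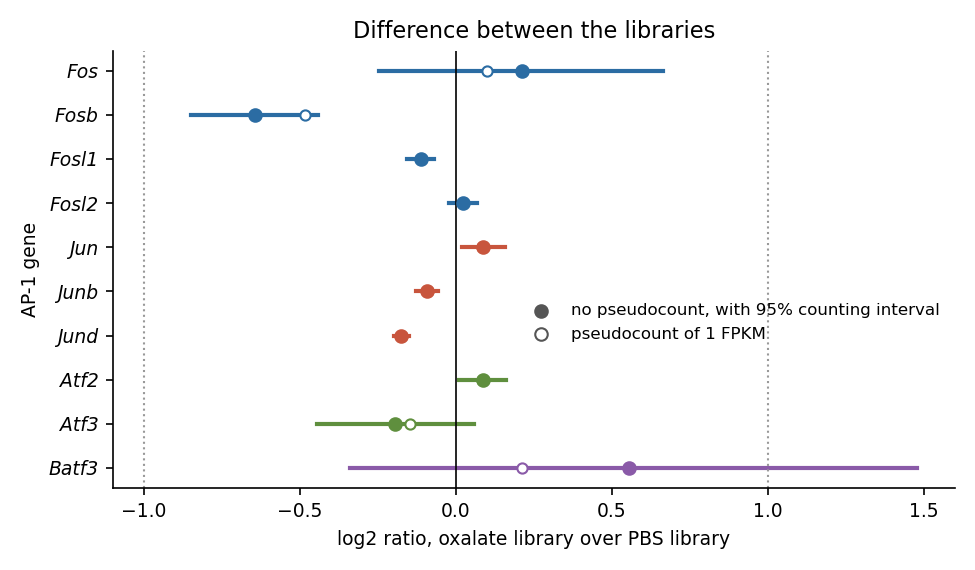
Log2 ratio of the oxalate over the PBS library for each AP-1 gene, coloured by family (FOS blue, JUN red, ATF green, BATF violet). Filled points have no pseudocount and carry the 95% counting interval of the estimated reads, open points have a pseudocount of 1 FPKM (hidden where both coincide), and dotted lines mark 2-fold; only Fosb lies beyond -0.4.

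**Figure D4:**
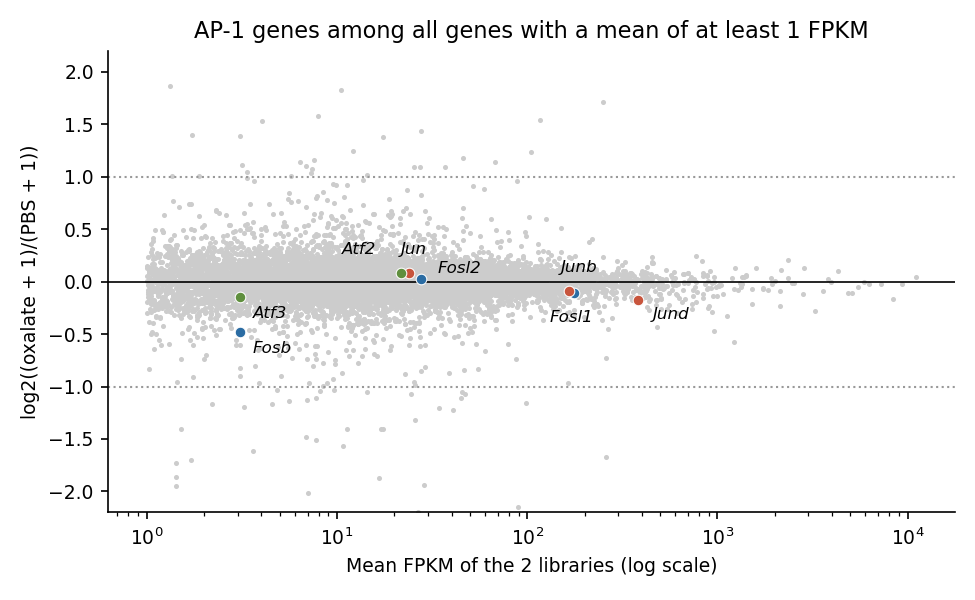
Log2((oxalate + 1)/(PBS + 1)) against the mean FPKM (log axis) for the 10267 genes with a mean of at least 1 FPKM (grey), with the 8 AP-1 genes among them coloured by family and dotted lines at 2-fold; 3 genes outside the axis are not drawn. The AP-1 genes lie among the grey points, from -0.48 for Fosb to 0.084 for Jun. Fosb is below the central 95% of all genes (-0.36 to 0.37).

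The members differ in gene structure and base composition. The coordinates given are from GENCODE M21, on the GRCm38 build. Jund (chr8:70698949-70700616) and Junb (chr8:84974484-84978718) share a chromosome, and so do Batf3 (chr1:191097847-191108945) and Atf3 (chr1:191170296-191218039). Fosl1 lies at chr19:5447547-5455946, Fosl2 at chr5:32135801-32157842, Fosb at chr7:19302696-19310051, Fos at chr12:85473890-85477273, Jun at chr4:95049034-95052222 and Atf2 at chr2:73816509-73892639. Atf2 has 11 coding transcripts with 5 to 14 exons, the most of the 10. The GC content of the coding transcripts ran from 42.0% for Atf2 to 67.1% for Jund. The 4 members above 60% were Jund, Batf3 (62.8%), Junb (62.6%) and Fosl1 (62.2%), of which Batf3 was higher and the other 3 lower with oxalate. Over all genes, the median log2 difference was 0.017 for the 532 genes with a GC content of at least 60% and -0.055 for the 1838 genes under 45%. Exons of 4 members overlap a gene on the opposite strand, and a preparation that marks strand is not named, so that reads there cannot be told apart. The overlap was 1163 bases for Fosl1 with Ccdc85b (58 FPKM with PBS and 50.01 with oxalate), 173 bases for Junb with Prdx2 (149.03 and 148.61 FPKM), 877 bases for Jund with Gm11175 and 232 bases for Jun with Junos. Atf2 shares 167 exon bases with Gm27421 on its own strand. The part of these neighbours in the levels, in the family shares and in the differences was not tested.

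The other genes of the pathway were read from 4 lists written from general knowledge. They cover other bZIP factors (the wider class with a basic region and a leucine zipper), kinases and factors that signal to AP-1, other immediate-early genes, and known AP-1 targets. Among their genes with a mean of at least 1 FPKM, 0 were raised or lowered 2-fold, against 0.292% and 0.36% of all 10267 genes. Genes of the lists under this limit were not counted. Of these, Dbp, a bZIP factor of the circadian clock (0.49 FPKM with PBS and 1.01 with oxalate), and Il1b, a cytokine gene of the target list (0.16 and 0.47 FPKM), both named after their values were seen, had log2 differences of 0.43 and 0.34. Without pseudocount these were 1.04 and 1.55, from an estimated 39 and 52 reads and 12 and 23 reads. Genes under the limit also went the other way, among them the immediate-early genes Btg2, Egr3 and Egr1, likewise named after their values were seen. Their log2 differences were -0.26, -0.26 and -0.16, or -0.69, -0.79 and -0.40 without pseudocount. The estimated reads were 118 and 47 for Btg2, 99 and 37 for Egr3, and 160 and 78 for Egr1.

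Among 34 other bZIP genes, 24 had a mean of at least 1 FPKM. With oxalate 9 were higher and 15 lower, with a median log2 difference of -0.052. Of the 24, 22 differed by less than 1.2-fold, beside 90.1% of all 10267 genes. Cebpb, a C/EBP factor of inflammatory and acute-phase genes, went from 56.74 to 80.21 FPKM, a log2 difference of 0.49 (interval 0.44 to 0.56). Atf5 went from 7.95 to 5.83 FPKM, a log2 difference of -0.39. Cebpb and Atf5 were the only ones of these 24 genes past 1.2-fold. Xbp1, a factor of the unfolded protein response, had a log2 difference of -0.16, and Atf7, a close relative of Atf2, one of 0.10. The most abundant were Atf4, the factor of the amino acid response (121.29 and 113.19 FPKM), Atf6b (81.23 and 79.14) and Nfe2l2, which encodes NRF2 (73.43 and 76.83).

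Among 31 genes that signal to AP-1, 29 had a mean of at least 1 FPKM, 14 higher and 15 lower, with a median log2 difference of -0.00066. Mapk7, which encodes ERK5, went from 9.44 to 13.4 FPKM, a log2 difference of 0.46 (interval 0.39 to 0.62). Mrtfa, a coactivator of serum response factor, went from 14.38 to 18.55 FPKM, a log2 difference of 0.35. These were the 2 genes of the list raised at least 1.2-fold, and 0 were lowered as far, against 4.75% and 5.19% of all 10267 genes. At the other end were Fbxw7, a ubiquitin ligase subunit that recognizes c-Jun, with a log2 difference of -0.16, and Cops5, a c-Jun coactivator, with -0.13. Elk3, a ternary complex factor that acts with serum response factor, was the most abundant at 162.95 and 161.67 FPKM. Map2k2, which encodes MEK2, was at 105.02 and 97.63 FPKM. Both lie far above the level of Fos.

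Of 40 other immediate-early genes, 32 had a mean of at least 1 FPKM, 15 higher and 17 lower, with a median log2 difference of -0.012. Csrnp1, an immediate-early nuclear protein, was the only gene of the 4 lists with a mean of at least 1 FPKM that changed at least 1.5-fold with the pseudocount of 1; without it Csf2 of the target list also passed. It went from 11.29 to 6.72 FPKM, a log2 difference of -0.67 (interval -0.91 to -0.59). It has 5 coding transcripts. The most abundant were Ier3 (451.65 and 458.82 FPKM) and the matricellular genes Ccn1 (281.39 and 282.98) and Ccn2 (264.35 and 272.09). The low level of Fos was shared by Egr1, another target of serum response factor, at 0.75 and 0.57 FPKM. Its relatives Egr2 (0.63 and 0.53 FPKM) and Egr3 (0.64 and 0.37 FPKM) were also under 1 FPKM, and Egr4 was listed at 0 in both libraries. The 4 Egr genes were singled out after their values were seen.

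Of 40 AP-1 targets, 28 had a mean of at least 1 FPKM, 13 higher and 15 lower, with a median log2 difference of -0.0077. Of the 28, 26 differed by less than 1.2-fold, beside 90.1% of all 10267 genes. The 2 of these 28 past 1.2-fold were Gja1, which encodes connexin 43, raised from 115.87 to 141.11 FPKM (log2 difference 0.28), and Csf2, which encodes GM-CSF, lowered from 2.64 to 1.71 FPKM (-0.43, or -0.63 without pseudocount, interval -1.13 to -0.14). Next to them were the chemokine gene Ccl2 (log2 difference 0.13) and Dmtf1, which encodes a Myb-like factor (-0.18). The most abundant targets were Ptgs2, which encodes cyclooxygenase 2, at 485.92 and 497.06 FPKM, the chromatin protein gene Hmga1 at 443.3 and 401.31, and Spp1, which encodes osteopontin, at 383.77 and 404.4.

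**Figure D5:**
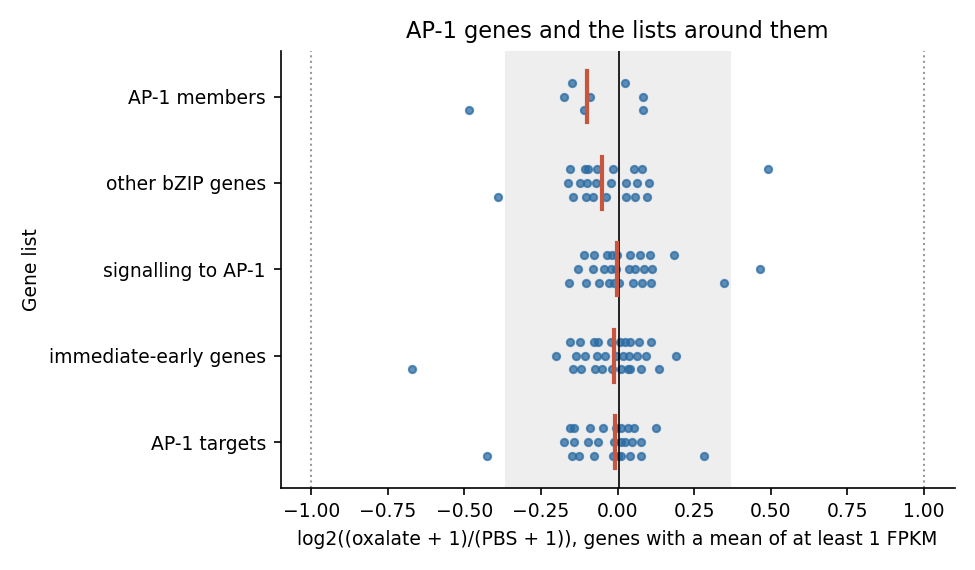
Log2((oxalate + 1)/(PBS + 1)) of each gene with a mean of at least 1 FPKM in the AP-1 family and the 4 lists (blue points, spread vertically for sight only), with list medians in red, the median of all genes as a black line and the central 95% of all genes (-0.36 to 0.37) shaded. Fosb, Atf5, Csrnp1 and Csf2 lie below the shaded band and Cebpb and Mapk7 above it.

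The heptamer itself was present in promoters of the target list. RefSeq windows were matched for 29 of the 40 targets, and 13 of these (44.8%) held TGACTCA on either strand, against 5.20% of all promoters; the list was written from known AP-1 targets, so this describes the list. Of the 13 genes, 7 had a mean of at least 1 FPKM. Their sites are shown because they match the heptamer that AP-1 binds, and whether AP-1 acts through them was not tested. TGACTCA or its reverse complement TGAGTCA is in capitals, with 11 bases on each side, on the strand of the gene. They lie at chr9:7445765-7445793 (Mmp3), chr9:7502268-7502296 (Mmp10), chr9:7272468-7272496 (Mmp13), chr7:24462403-24462431 (Plaur), chr10:56377270-56377298 (Gja1), chr17:6782795-6782823 (Ezr, minus strand) and chr8:94172528-94172556 (Mt2), on the plus strand unless stated.
Mmp3: ggaagcaattaTGAGTCAgttttcgggtg
Mmp10: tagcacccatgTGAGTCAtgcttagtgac
Mmp13: ccccaaagtggTGACTCAtcactatcatg
Plaur: acccctggagcTGACTCActctttagcaa
Gja1: ctccttccagtTGAGTCAgtggcttgaaa
Ezr: ccgatcgggcgTGACTCAtcttgggaccg
Mt2: gaaagggggtgTGACTCAgcgcggggggt

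The 7 genes with these sites lay on both sides of 0. Of them, 4 were higher and 3 lower with oxalate, with a median log2 difference of 0.0028 and a range from -0.14 to 0.28. The stromelysin gene Mmp3 was at 31.27 and 31.51 FPKM, its neighbour Mmp10 at 8.92 and 7.98, and the collagenase gene Mmp13 at 4.77 and 4.47. Plaur, the urokinase receptor gene, was at 170.04 and 170.37 FPKM, Ezr, which encodes ezrin, at 324.81 and 335.39, and the metallothionein gene Mt2 at 17.05 and 16.28. The 12 measured targets whose window held no TGACTCA had a median of 0.0055, with 6 higher and 6 lower. Over all genes, those with TGACTCA in the window numbered 363 of 8158 with a matched promoter and a mean of at least 1 FPKM. Their median log2 difference was 0.011, against 0.0035 for genes without it, and 2 were raised and 3 lowered at least 2-fold. For the 318 genes with TGACGTCA the median was -0.0016, and 0 were raised or lowered 2-fold. The 180 genes with TGACATCA, the octamer of the Jun promoter, had a median of 0.025, against 0.0030 for genes without it. Of them, 60% were higher with oxalate, beside 50.6% of all 10267 genes and 49.4% to 53.2% for the other motifs searched. TGACATCA was added to the search after the values were seen. Of these 180 genes, 1 was raised and 3 were lowered at least 2-fold. Over all 10267 genes, 0.292% were raised and 0.36% lowered at least 2-fold. For none of these motifs was the difference tested.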

How the data were processed

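The deposited values are FPKM made by the authors, given with 2 decimals for 1 PBS and 1 oxalate library. The submitters' processing notes name Bowtie2 2.2.8 and TopHat2 2.1.1, with no role. The counter, genome build and annotation are not given in the sources used here. Symbols were looked up in GENCODE M21 by Ensembl identifier, which found 21848 of 21911.

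Depth was estimated from genes with 1 transcript shorter than 0.7 kb, whose FPKM times length lay within 0.2 of a whole multiple of 1 step in 100% of 89 PBS and 75 oxalate values. Reads of a gene are its FPKM times the mean length of its coding transcripts divided by that step. Since the quantification is not known, they are estimates.

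The AP-1 genes and the lists were chosen with earlier results of these data known. Named genes were all members and, per list, genes changed at least 1.5-fold or otherwise the 2 highest and the 2 lowest differences, and the 3 highest means, of which 1 gene is not reported here. Genes with a promoter site, and the motifs other than TGACTCA and TGACGTCA, were chosen after the values were seen. No gene was sought for likeness of pattern, since 2 libraries give 1 difference. Alternatives were other pseudocounts, scalings, filters, thresholds and lengths. The estimate of depth and the calls past 2-fold were checked on simulated libraries with counting error only. The changes put in were 3-fold, in genes with a mean of at least 5 FPKM. Smaller changes and changes in lower genes were therefore not checked. The software was scipy 1.17.1, pandas 2.3.3, numpy 2.4.6 and matplotlib 3.10.9 under Python 3.11.15.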

Additional observations from a re-analysis of the deposited data

How the results depend on the processing

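No paired analysis was possible because PBS and oxalate have 1 library apiece, and no replicate could be left out. The 40 alternative values of the single AP-1 genes (pseudocounts of 0.1 and 0.001, rescaling to a median ratio of 1 and rescaling to TPM) all kept their direction and moved by less than the counting interval. The count of members changed 2-fold stayed at 0 under every pseudocount, scaling and filter run. With the pseudocount of 1 it was also 0 at 1.5-fold and became 1 at 1.2-fold. Pseudocounts of 0.1 and 0.001 put Fosb past 1.5-fold, at log2 differences of -0.62 and -0.65. The number of members whose interval leaves out 0 was 6 with each of the 3 lengths. The Fosl1 share of the FOS sum became 51.4% (PBS) and 49.6% (oxalate) as estimated reads, and 77.7% and 76.7% per longest coding transcript, which was added once the values had been seen. The Jund share of the JUN sum became 64.0% and 62.1% as estimated reads and 67.0% for the mean of both libraries. The median of the AP-1 genes became -0.034 both over all genes listed and at a mean of at least 5 FPKM, since other members are counted. Of 43 alternative medians of lists and promoter groups, 6 changed sign: rescaling to TPM, which shifts the log2 ratio without pseudocount by 0.021 and values with a pseudocount by other amounts, gave 0.020 for the signalling, 0.0046 for the immediate-early and 0.013 for the target list, the signalling list was at 0.0043 at a mean of at least 5 FPKM and at 0.030 as a mean, and genes with TGACTCA were at -0.0039 at a mean of at least 5 FPKM. Depth limits Fos and Batf3, at 98 and 73 and at 23 and 22 estimated reads.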
